A study of Arabidopsis thaliana with 12 samples.

Results

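WUSCHEL (WUS) is the homeodomain transcription factor of the shoot organizing center, the group of cells below the stem cells that keeps them undifferentiated. It is best known as a repressor that recruits co-repressors of the TOPLESS family, which in turn bring histone deacetylases to target genes, and it can also activate genes. Trichostatin A (TSA) inhibits the zinc-dependent histone deacetylases, which include the RPD3-type family. The comparison described here asks which functions differ between seedlings with and without active WUS while these deacetylases are inhibited. It takes the 6 libraries from seedlings that received dexamethasone (DEX) together with TSA, out of 12 libraries in all, and sets the 3 libraries of the WUS induction line against the 3 libraries of wild type across all genes of the count table.

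The induction line, *pUBI10::mCherry-GR-linker-WUS* (hereafter WUS-GR), carries a WUS protein joined to mCherry and to the hormone-binding domain of the glucocorticoid receptor, which holds the fusion outside the nucleus until DEX is given. Its ubiquitin promoter is active in most tissues, so WUS was induced in the whole seedling and not in its own small domain. WUS-GR and wild-type Col-0 seedlings were treated in the same way, with 25 µM DEX (the dose in the sample labels) and 1 µM TSA for 2 h at 5 days after germination. The DEX-only libraries of both genotypes, also 3 each, are used only to set the values without TSA beside those with TSA. Every seedling received DEX and no WUS-GR library without DEX is used here, so that any other difference between the line and wild type cannot be told apart from the effect of WUS. RNA came from whole seedlings, in which fewer cells of a type and less RNA per cell cannot be told apart.

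Between 14810658 and 20803934 reads were counted on genes per WUS-GR library, against 17968085 to 21578662 per Col-0 library. Replicates correlated at 0.992 to 0.995 (Pearson, log2 values over genes) and differed by more than sampling noise, so that all 6 were kept as separate libraries. Levels are given as CPM, which are counts scaled to a common library size with edgeR's TMM factors. A log2 fold change is WUS-GR over Col-0. The TMM factors lay between 0.919 and 0.926 in WUS-GR and between 1.06 and 1.098 in Col-0. Scaling by the totals alone would shift the median over all genes tested to -0.24 on the log2 scale, against -0.01 with TMM. The directions of small changes therefore depend on this scaling, and both counts are given for each list whose more frequent direction turned with it. Genes encoded in the plastid took 0.461%, 1.13% and 0.421% of the counts in WUS-GR, against 0.156%, 0.143% and 0.170% in Col-0, and the second WUS-GR library stood apart in this.

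*WUS* itself (AT2G17950) identified the libraries as their labels do, with 137915, 142276 and 94664 counts in WUS-GR, against 42, 38 and 38 counts in Col-0. In CPM this was 7465, 7391 and 6922 CPM in WUS-GR, against 2.15, 1.79 and 1.66 CPM in Col-0, a log2 fold change of 11.93 ± 0.16 (SE, adjusted p = 8.3e-14). Its count holds reads of the transgene along with those of the resident gene, so that a response of the resident gene cannot be read from it.

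Of 34262 genes in the table, 11296 had 0 counts in the 6 libraries and 16873 had enough counts to be tested. WUS-GR seedlings differed from Col-0 at 9253 of them, or 54.8% of genes tested (edgeR's quasi-likelihood F-test, two-sided, adjusted p under 0.05 with Benjamini-Hochberg adjustment over all genes tested). Genes higher in WUS-GR numbered 4555 (27.0%) and genes lower in WUS-GR numbered 4698 (27.8%). With library totals alone as the scaling these numbers were 2774 and 7024, so that higher genes made up 28.3% of calls, compared with 49.2% with TMM. Most differences were small, as the median log2 fold change was 0.67 for higher genes (interquartile range 0.45 to 1.04) and -0.77 for lower genes (-1.29 to -0.49). At least 2-fold differences were found for 1222 higher genes (7.24% of genes tested) and 1688 lower genes (10%), and at least 8-fold differences for 84 higher and 149 lower genes. The 3 WUS-GR libraries did not overlap with the 3 Col-0 libraries for 10475 genes (62.1%). Among lower genes, 66 had 3 or fewer counts in each WUS-GR library, whereas 5 higher genes had 3 or fewer counts in each Col-0 library. With differences at so large a share of genes, a count of called members in any gene list has to be read against these shares.

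**Figure D1:**
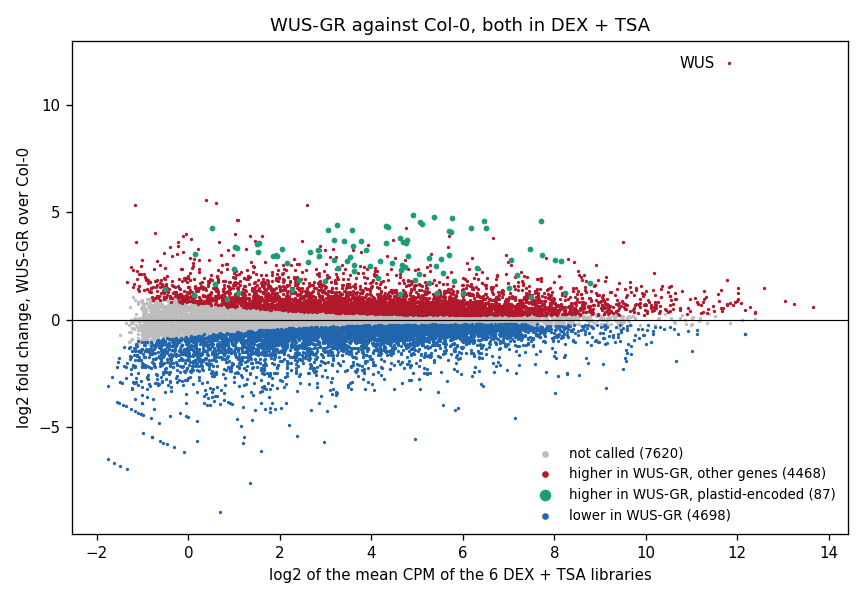
Log2 fold change of WUS-GR over Col-0, both in DEX and TSA, against the log2 of the mean CPM of the 6 libraries, with 1 point for each of the 16873 genes tested. Red and green points are the 4555 genes higher in WUS-GR, blue points the 4698 lower genes and grey points the 7620 genes not called. The 87 green plastid-encoded genes lie among the highest fold changes at their levels, and *WUS* is at the upper right.

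The largest falls by rule, among called genes with a mean log2 CPM over 1 and no overlap between genotypes, included regulators and enzymes of defense and secondary metabolism. *RAP2.6*, an ERF transcription factor induced by stress and wounding, was at 0.812, 1.51 and 1.61 CPM in WUS-GR, against 69.7, 52.1 and 59.1 CPM in Col-0, a log2 fold change of -5.54 ± 0.19 (SE, adjusted p = 1.8e-09). AT1G15125, annotated as a methyltransferase, was at 12.1, 9.66 and 12.3 CPM in WUS-GR, against 337, 272 and 205 CPM in Col-0, a log2 fold change of -4.58 ± 0.18 (SE, adjusted p = 3.5e-09). Both had all Col-0 libraries more than an order of magnitude above all WUS-GR libraries. *LOG5*, which makes the active form of cytokinins, was at 0.108, 0.208 and 0.0731 CPM in WUS-GR, against 4.14, 4 and 4.80 CPM in Col-0 (-4.92 on the log2 scale). *MAM1*, a chain-elongating synthase of aliphatic glucosinolate synthesis, was at 0.108, 0.416 and 0 CPM in WUS-GR, against 2.503, 8.38 and 4.32 CPM in Col-0 (-4.67 on the log2 scale). *ABCG8*, an ABC transporter, and AT4G21650, a subtilase, fell by 4.91 and 5.40 on the log2 scale, and AT1G62500, a lipid-transfer-like protein, fell by 5.70. The other members of the 12 had 3 or fewer counts in each WUS-GR library, which allows only a bound. These were the lipid-transfer-like AT4G15160 (at least 33.0-fold lower), the defensin *PDF1.3* (at least 28.2-fold), the transporter AT5G18840 (at least 25.5-fold), the methionine sulfoxide reductase *MSRB7* (at least 24.9-fold) and the lectin AT5G03350 (at least 22.5-fold). *PDF1.3* was uneven in wild type, with 0, 0.0519 and 0 CPM in WUS-GR, against 12.4, 0.659 and 2.14 CPM in Col-0, so that 1 Col-0 library carried most of its level.

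The largest rises by the same rule were led by *WUS* and held 7 plastid-encoded genes, which are treated with the other plastid genes, and the noncoding ENSRNA049494790. The nuclear genes among them were *COR15B*, *PS2* and AT5G11140. *COR15B*, a chloroplast protein that accumulates in the cold, was at 66.9, 105 and 69.3 CPM in WUS-GR, against 1.63, 3.86 and 3.58 CPM in Col-0, a log2 fold change of 4.71 ± 0.25 (SE, adjusted p = 2.8e-08). *PS2*, a phosphatase induced by phosphate starvation, was at 2.38, 5.77 and 4.02 CPM in WUS-GR, against 0, 0.235 and 0.218 CPM in Col-0, a log2 fold change of 4.64 ± 0.52 (SE, adjusted p = 1.1e-05). In both genes each WUS-GR library was above each Col-0 library by an order of magnitude or more. *COR15B* overlaps a gene on the opposite strand by 468 bp and has a close paralog, *COR15A*, beside it, so reads may have been shared, since the strand setting of the counting is not given in the sources used here. Among the next were *KIN1* (4.24 on the log2 scale), *PUB18* (3.90), *COR15A* (3.88), *ERF71* (3.69), the pyruvate decarboxylase AT4G33070 (3.67) and *LTI78* (3.60). They were named after their values were seen, and *KIN1*, *PUB18*, *COR15A* and *LTI78* are genes of the cold and abscisic acid response. Rises in the same range were found for AT1G04660, AT5G02540 and AT1G30750, whose values are given under other observations.

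To describe functions across the transcriptome, 70 lists of genes by pathway, family or tissue were used, with 2605 distinct genes of which 1700 were tested and 1076 called. For each list the numbers of higher and lower members and the median log2 fold change of tested members are given, beside shares of 27.0% and 27.8% and a median of -0.01 over all genes tested. Members of a list share functions and at times sequence, and they are not replicates, so no list was tested as a set. Among lists with 8 or more tested members, most tested members were higher for plastid-encoded genes, rapid stress regulators, nuclear photosynthesis genes, TOPLESS co-repressors, DNA replication genes, nitrate assimilation genes, shoot markers, salicylic acid genes and heat shock genes. Most were lower for morning clock genes, GRF and GIF genes, vascular genes, TCP genes, WRKY genes, ethylene genes and genes of flowering and floral identity. With library totals alone the lists named as lower kept most members lower. Most members then stayed higher only for plastid-encoded genes, rapid stress regulators and nuclear photosynthesis genes. TOPLESS co-repressors had 4 of 8 tested members higher, DNA replication genes 10 of 25 and nitrate assimilation genes 11 of 22. Shoot markers had 10 of 22 higher, salicylic acid genes 4 of 12 and heat shock genes 21 of 51. Genes are named as extremes of a list, as called members of a list of 15 or fewer, or, for other members of longer lists, after their values were seen.

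**Figure D2:**
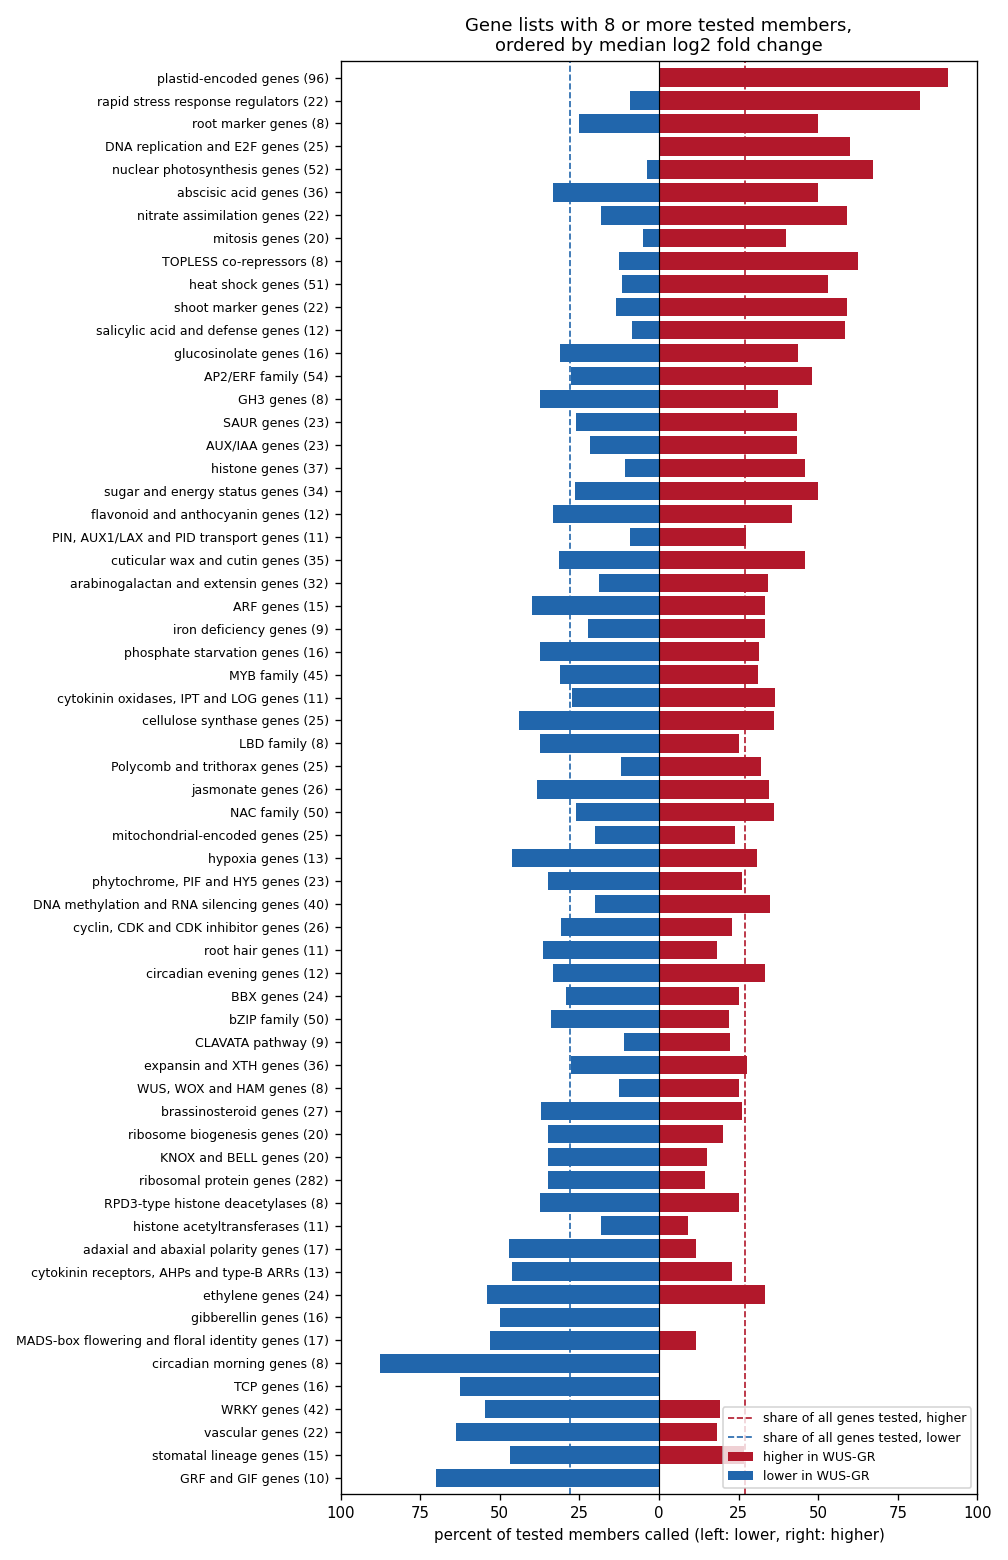
Share of tested members called higher (red, to the right) and lower (blue, to the left) in WUS-GR for each list with 8 or more tested members, in percent, ordered from the highest median log2 fold change at the top to the lowest at the bottom. The number of tested members stands in brackets, and dashed lines mark the shares over all genes tested, 27.0% higher and 27.8% lower. Plastid-encoded genes are at the top and GRF and GIF genes at the bottom.

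Several genes known from the cold response rose, and those described here were chosen after their values were seen and form no list of their own. CBF transcription factors (C-repeat binding factors, of which *DREB1A* is CBF3) are made within hours of cold or other stress and bind the CRT/DRE element, whose core is CCGAC, in front of *COR* genes, while abscisic acid (ABA) acts on many of the same genes through other factors. *LTI78*, also known as RD29A and a widely used reporter of cold and ABA signaling, has 3 such cores in the 250 bases upstream of its annotated start, and *COR15A* has 2. *RD26*, a NAC transcription factor induced by drought and ABA, and *PUB18* and *PUB19*, ubiquitin ligases that dampen ABA responses, have 1 each. These windows are printed because all 5 genes were higher in WUS-GR. They are TAIR10.1 sequences (RefSeq), 5′ to 3′ on the strand of the gene, with CCGAC or its complement GTCGG in capitals.
LTI78 (chr5:21240467-21240716, plus strand): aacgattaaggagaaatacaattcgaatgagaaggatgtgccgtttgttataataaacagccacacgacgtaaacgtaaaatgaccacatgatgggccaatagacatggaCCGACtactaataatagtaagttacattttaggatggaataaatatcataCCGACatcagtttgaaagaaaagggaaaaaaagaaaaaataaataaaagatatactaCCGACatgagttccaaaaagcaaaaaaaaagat
COR15A (chr2:17712331-17712580, minus strand): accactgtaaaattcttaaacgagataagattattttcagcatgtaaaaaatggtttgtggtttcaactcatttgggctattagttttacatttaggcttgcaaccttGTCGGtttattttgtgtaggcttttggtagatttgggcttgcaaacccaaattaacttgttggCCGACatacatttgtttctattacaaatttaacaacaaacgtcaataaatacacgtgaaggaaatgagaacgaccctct
RD26 (chr4:13709262-13709306, minus strand): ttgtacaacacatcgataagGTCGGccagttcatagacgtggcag
PUB18 (chr1:3484302-3484346, plus strand): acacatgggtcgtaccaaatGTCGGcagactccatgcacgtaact
PUB19 (chr1:22198049-22198093, plus strand): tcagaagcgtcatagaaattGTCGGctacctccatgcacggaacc

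*LTI78* was at 1270.5, 1258 and 1518 CPM in WUS-GR, against 90.0, 136 and 107 CPM in Col-0, a log2 fold change of 3.60 ± 0.15 (SE, adjusted p = 4.9e-09). *RD26* was at 563, 556 and 529 CPM in WUS-GR, against 81.6, 77.9 and 76.3 CPM in Col-0, a log2 fold change of 2.80 ± 0.08 (SE, adjusted p = 6.4e-10). The WUS-GR libraries of both genes lay close together, and all were above all Col-0 libraries by a wide margin. *COR15A* was at 59.2, 155 and 77.2 CPM in WUS-GR, against 4.19, 10.2 and 5.41 CPM in Col-0, a log2 fold change of 3.88 ± 0.36 (SE, adjusted p = 2.6e-06), with the second library of each genotype as its highest. *PUB18* was at 3.79, 7.06 and 6.36 CPM in WUS-GR, against 0.460, 0.235 and 0.436 CPM in Col-0, a log2 fold change of 3.90 ± 0.33 (SE, adjusted p = 1.1e-06). *PUB19* was at 8.82, 14.6 and 11 CPM in WUS-GR, against 2.45, 2.68 and 2.84 CPM in Col-0, a log2 fold change of 2.11 ± 0.19 (SE, adjusted p = 2.3e-06). *KIN1*, a small cold-induced hydrophilic protein, was at 39.8, 59.7 and 53.7 CPM in WUS-GR, against 1.23, 3.44 and 3.32 CPM in Col-0, a log2 fold change of 4.24 ± 0.26 (SE, adjusted p = 7.5e-08), and its neighbor and close paralog *KIN2* rose by 1.57 on the log2 scale. Neither *COR15B* nor *KIN1* had a CCGAC match in the 250 bases.

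The factors themselves rose as well, at very low levels. *DREB1A* was at 2.22, 2.49 and 2.92 CPM in WUS-GR, against 0.0511, 0.0471 and 0.0437 CPM in Col-0, with at most 3 counts in each Col-0 library, and was at least 18.0-fold higher in WUS-GR. *CBF1* was at 1.57, 1.51 and 1.68 CPM in WUS-GR, against 0.0511, 0.0471 and 0.262 CPM in Col-0, a log2 fold change of 3.59 ± 0.47 (SE, adjusted p = 3.8e-05). *CBF2* was at 3.57, 2.81 and 2.85 CPM in WUS-GR, against 0.511, 0.471 and 0.524 CPM in Col-0, a log2 fold change of 2.60 ± 0.26 (SE, adjusted p = 4.6e-06). No library of WUS-GR overlapped with a library of Col-0 for any of the 3 genes. They belong to a list of 22 tested regulators of the rapid stress response, of which 18 were higher and 2 lower (median 0.99). Others in it were the MYB factor *MYBR1*, also known as MYB44 (1.96 on the log2 scale), the zinc finger repressor *ZAT7* (1.58), *ERF6* (1.27) and the calmodulin-like touch gene *TCH2* (1.25), whereas the lower members were *ERF104* (-0.70) and *STZ* (-0.50). Without TSA, 9 higher and 8 lower of 22 tested members of the same list were called.

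**Figure D3:**
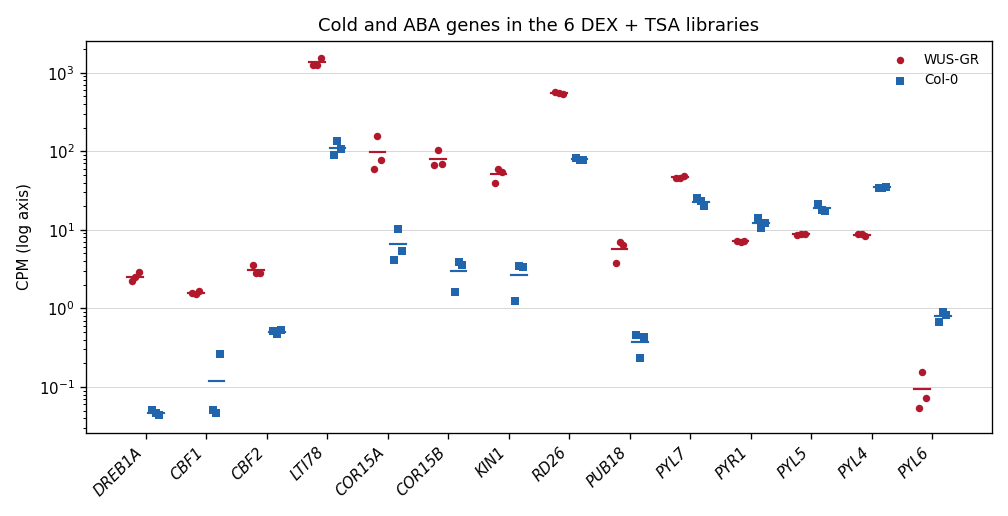
CPM on a log axis of cold and ABA genes in the 6 DEX and TSA libraries, with red circles for the 3 WUS-GR libraries, blue squares for the 3 Col-0 libraries and a line at each mean. CBF factors, the cold and ABA responsive genes from *LTI78* to *PUB18* and *PYL7* are higher in WUS-GR, and the ABA receptor genes *PYR1*, *PYL5*, *PYL4* and *PYL6* (right) are lower.

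Called members of the ABA list went in both directions. Of 36 tested members 18 were higher and 12 lower (median 0.44), and the receptors of the PYR/PYL family, which inhibit type 2C phosphatases when they bind ABA, were mostly among the lower ones. *PYL4* was at 8.82, 8.73 and 8.34 CPM in WUS-GR, against 34.3, 34.1 and 35.5 CPM in Col-0, a log2 fold change of -2.001 ± 0.10 (SE, adjusted p = 1.5e-08). *PYL5* was at 8.72, 8.93 and 8.92 CPM in WUS-GR, against 21.6, 17.8 and 17.2 CPM in Col-0, a log2 fold change of -1.09 ± 0.12 (SE, adjusted p = 9.5e-06). For both genes the highest WUS-GR library was below the lowest Col-0 library. *PYR1* (-0.77 on the log2 scale) and *RCAR3* (-1.14) were lower too, and *PYL6* was at 0.0541, 0.156 and 0.0731 CPM in WUS-GR, against 0.664, 0.894 and 0.829 CPM in Col-0, at least 4.44-fold lower. *PYL7* was the receptor that rose most, at 45.6, 45.8 and 48.9 CPM in WUS-GR, against 25.4, 23.1 and 20.17 CPM in Col-0, a log2 fold change of 1.03 ± 0.10 (SE, adjusted p = 4.2e-06), and *RCAR1* rose by 0.72 on the log2 scale. Among the phosphatases, *HAI1* (-1.44), *ABI1* (-0.83) and *ABI2* (-0.50) fell and *PP2CA* (0.63), *HAB1* (0.60) and *HAB2* (0.39) rose. The ABA synthesis genes *NCED3* (0.92) and *ABA1* (0.50) rose and *AAO3* (-0.65), which makes the last step, fell. The transcription factor *ABI5* fell by 1.23 on the log2 scale, with *ABF2* at -0.40, *ABF3* at -0.43 and *ABF4* at 0.48.

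The CCGAC core was then counted, on both strands, in the 250 bases upstream of 27443 protein-coding nuclear genes of TAIR10.1, of which 3285 held it, and it was present in 13.3% of 16511 such genes that were tested. Among called genes it was present in 15.5% of 4443 genes higher in WUS-GR and in 11.7% of 4602 lower genes, and these shares were 18.0% of 1117 and 10.5% of 1636 among genes with at least 2-fold differences. In the ABA list it occurred in 27.8% of 36 tested members, in 44.4% of 18 higher members and in 0 of 12 lower members. That list holds responsive genes as well as receptors and phosphatases, and it was chosen with earlier results of these data known. Whether the core goes with the direction of change was not tested. An ABA response element, ACGTGNC, was found in 8.57% of all promoters, in 9.93% of those of genes tested, in 12.2% of higher and in 8.69% of lower genes, where N is any base. The sequence TTAATGG, a homeodomain-type element, was found in 6.99% of all promoters and in 7.7% of those of genes tested, with 7.18% of higher, 7.37% of lower and 8.21% of uncalled genes. These matches describe the letters of the windows and not binding.

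Other stress pathways gave mixed or opposite pictures. Heat shock genes, which encode chaperones and their activators, were 27 higher and 6 lower of 51 tested (median 0.39), with *Hsp70-2* (2.33 on the log2 scale) as the largest rise and the factor *HSFB4* (-4.10) as the largest fall. Of the WRKY transcription factors, which act mostly in defense and senescence, 8 were higher and 23 lower of 42 tested (median -0.58). *WRKY53*, a regulator of leaf senescence, was at 0.108, 0.208 and 0.146 CPM in WUS-GR, against 1.17, 1.04 and 1.35 CPM in Col-0, a log2 fold change of -2.88 ± 0.41 (SE, adjusted p = 7.8e-05). *WRKY75* was at 0.812, 0.571 and 0.439 CPM in WUS-GR, against 6.03, 6.78 and 3.75 CPM in Col-0, a log2 fold change of -3.14 ± 0.31 (SE, adjusted p = 3.7e-06), and *ABO3* (WRKY63), with 3 or fewer counts in each WUS-GR library, was at least 5.25-fold lower. All WUS-GR libraries were below all Col-0 libraries for *WRKY53* and *WRKY75*, whereas *WRKY30* (1.47), *WRKY33* (1.15) and *WRKY22* (1.12) rose. Salicylic acid and defense genes were 7 higher and 1 lower of 12 tested (median 0.35), with *SARD1*, an activator of salicylic acid synthesis, at 1.40, the lipase-like *EDS1* at 1.29 and the salicylic acid exporter *EDS5* at 0.80, while *SAG101* fell by 0.51. Genes of the hypoxia response were 4 higher and 6 lower of 13 tested (median 0.06), of which *ERF71* (3.69), AT4G33070 (3.67) and the alcohol dehydrogenase *ADH1* (2.18) rose, and *ERF73* (-1.30) and the hemoglobin *HB1* (-1.35) fell. *ADH1* was at 17, 17.2 and 16.8 CPM in WUS-GR, against 3.88, 4.19 and 3.19 CPM in Col-0.

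Jasmonate genes were 9 higher and 10 lower of 26 tested (median 0.11). *LOX2*, a plastid lipoxygenase of jasmonate synthesis, was at 88.9, 413 and 157 CPM in WUS-GR, against 37.4, 33.2 and 33.7 CPM in Col-0, a log2 fold change of 2.66 ± 0.41 (SE, adjusted p = 0.00014), while the next enzymes of the pathway, *AOS* (-1.09), *AOC1* (-2.49) and *AOC2* (-1.21), fell. The allene oxide cyclases *AOC1* and *AOC2* are close paralogs, and their reads could have been split between them. Among JAZ repressors *JAZ1* (1.55) and *JAZ10* (0.88) were higher and *JAZ6* (-1.79), *JAZ11* (-1.52) and *JAZ7* (-1.102) lower. Ethylene genes were 8 higher and 13 lower of 24 tested (median -0.44), with the synthesis genes going both ways, *ACS7* (-2.54) downward and *ACS8* (1.61) and *ACS6* (1.41) upward. The response factor *ERF1* was at 1.84, 3.69 and 3.95 CPM in WUS-GR, against 14.4, 10.8 and 13.2 CPM in Col-0, a log2 fold change of -2.03 ± 0.22 (SE, adjusted p = 9.1e-06), and the F-box gene *EBF2*, which targets EIN3 for degradation and is itself induced by ethylene, at 27.7, 30.9 and 26.8 CPM in WUS-GR, against 94.1, 86.7 and 85 CPM in Col-0, a log2 fold change of -1.64 ± 0.09 (SE, adjusted p = 4.2e-08). Neither gene had overlapping genotypes. The receptors *ERS1* (0.91) and *ERS2* (0.90) rose whereas *ETR2* (-0.85) and *EIN4* (-0.60) fell.

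Meristem regulators were next considered. KNOX homeodomain proteins such as STM keep meristem cells undifferentiated and act in pairs with BELL proteins. The list had 3 higher and 7 lower of 20 tested (median -0.13). *STM* was at 3.30, 2.13 and 2.63 CPM in WUS-GR, against 5.98, 4.42 and 4.32 CPM in Col-0, a log2 fold change of -0.86 ± 0.21 (SE, adjusted p = 0.0042). *KNAT2* was at 2.87, 2.29 and 1.90 CPM in WUS-GR, against 9.50, 6.83 and 7.07 CPM in Col-0, a log2 fold change of -1.71 ± 0.20 (SE, adjusted p = 1.6e-05), and the BELL gene *ATH1* at 1.25, 1.14 and 1.17 CPM in WUS-GR, against 7.61, 8.10 and 6.85 CPM in Col-0, a log2 fold change of -2.66 ± 0.18 (SE, adjusted p = 2.0e-07). All 3 genes had each WUS-GR library below each Col-0 library. *BLH1* (-1.82 on the log2 scale) and *BLH8* (-1.62) fell too, and *BLH2* (0.75), *BLH4* (0.98) and *BEL10* (0.44) rose, while *KNAT1*, also known as BREVIPEDICELLUS, was not called (0.46, adjusted p = 0.14). Boundary genes separate organs from the meristem, and all 5 tested were lower (median -1.71). *LSH1* was at 0.487, 0.416 and 0.366 CPM in WUS-GR, against 2.55, 1.88 and 2.71 CPM in Col-0, *LSH3* at 0.595, 0.779 and 1.61 CPM in WUS-GR, against 4.03, 2.64 and 3.54 CPM in Col-0 and *LSH4* at 1.14, 0.675 and 1.46 CPM in WUS-GR, against 3.27, 3.15 and 4.06 CPM in Col-0, with no overlap between genotypes in any of them. *LOB* fell by 1.57 and *BOP2* by 1.05 on the log2 scale, and *BOP2* (adjusted p = 0.039) was not called without the first Col-0 library (log2 fold change -0.41, adjusted p = 0.25) or without any of the WUS-GR libraries in turn (adjusted p = 0.061, 0.072 and 0.11).

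**Figure D4:**
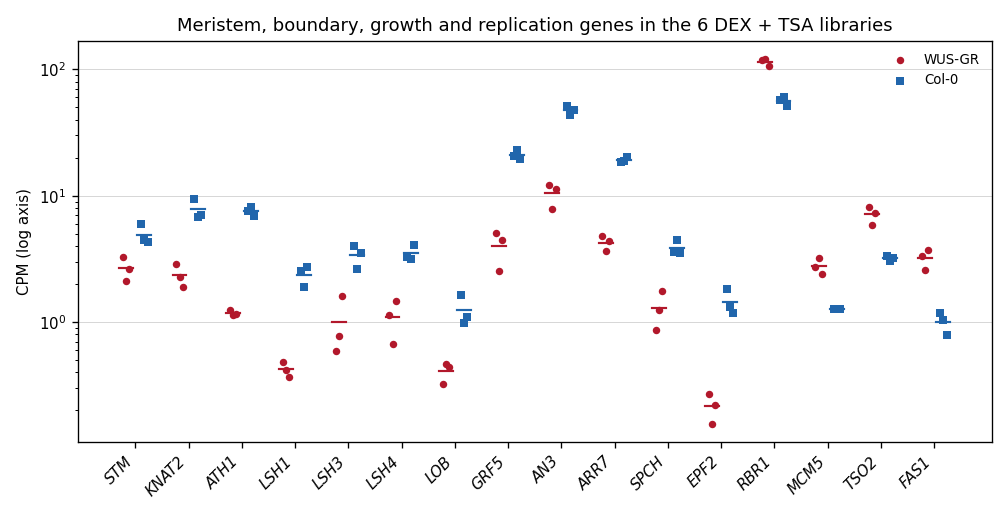
CPM on a log axis of meristem, boundary, growth, stomatal, cytokinin and replication genes in the 6 DEX and TSA libraries, with red circles for the 3 WUS-GR libraries, blue squares for the 3 Col-0 libraries and a line at each mean. From *STM* to *EPF2* the WUS-GR libraries lie below the Col-0 libraries, and for *RBR1*, *MCM5*, *TSO2* and *FAS1* they lie above them.

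Genes reported in earlier work as WUS targets behaved unevenly. *ARR7*, a type-A response regulator that dampens cytokinin signaling, was at 4.76, 3.64 and 4.39 CPM in WUS-GR, against 18.5, 19 and 20.25 CPM in Col-0, a log2 fold change of -2.18 ± 0.13 (SE, adjusted p = 7.2e-08), with all WUS-GR libraries below all Col-0 libraries. *KAN1* (listed as *KAN*), which promotes abaxial fate in leaves, was at 42, 44.5 and 41.8 CPM in WUS-GR, against 67.9, 77.1 and 74 CPM in Col-0, a log2 fold change of -0.77 ± 0.09 (SE, adjusted p = 1.0e-05). *AS2*, an adaxial regulator, was at 0.379, 0.0520 and 0.439 CPM in WUS-GR, against 0.664, 0.659 and 1.22 CPM in Col-0, a log2 fold change of -1.62 ± 0.53 (SE, adjusted p = 0.021). The fall of *AS2* rested on single libraries, as it was not called without the third Col-0 library (log2 fold change -1.25, adjusted p = 0.094) or without the second WUS-GR library (-1.06, adjusted p = 0.098), nor by DESeq2 (adjusted p = 0.053). *CLV1*, the receptor kinase that restricts WUS, was at 92.1, 83.1 and 69.8 CPM in WUS-GR, against 63.5, 63 and 74.9 CPM in Col-0, a log2 fold change of 0.28 ± 0.11 (SE, adjusted p = 0.045). It had a log2 fold change of 0.05 (adjusted p = 0.69) with library totals alone, and was not called without the first (adjusted p = 0.11) or second Col-0 library (0.13) or without the first (0.21) or second WUS-GR library (0.093). *KAN2* (log2 fold change -0.31, adjusted p = 0.052) and *YAB3* (-0.04, adjusted p = 0.71) were not called, although with library totals alone both were (-0.54, adjusted p = 0.0027, and -0.27, adjusted p = 0.0094). *CLV3*, which encodes the peptide of the stem cells, was at 0, 0.208 and 0.146 CPM in WUS-GR and at 0 CPM in each Col-0 library and was not tested. The CLAVATA list as a whole was 2 higher and 1 lower of 9 tested (median -0.06), or 1 higher and 3 lower with library totals alone, in which the receptor kinase *BAM2* (-0.85) fell and its relative *BAM1* (0.62) rose.

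Polarity genes, which set the upper and lower sides of leaves, were 2 higher and 8 lower of 17 tested (median -0.31). The small zipper genes, whose products inhibit class III homeodomain-zipper proteins, moved apart, with *ZPR3* at 1.14, 0.727 and 1.32 CPM in WUS-GR, against 4.70, 2.97 and 4.02 CPM in Col-0 (-1.90 on the log2 scale) and *ZPR4* at 3.74, 3.79 and 2.85 CPM in WUS-GR, against 0.868, 1.22 and 1.40 CPM in Col-0 (1.57). Among the class III genes *ATHB-15* (-1.09), *PHV* (-0.70) and *REV* (-0.46) fell. The YABBY genes *AFO* (-1.05) and *YAB2* (-0.68) fell as well. In the WUS, WOX and HAM list 2 higher and 1 lower of 8 tested were called, namely *WUS* and *HAM2* (0.50) and, as the fall, *HAM4* (-1.04), which belongs to the GRAS partners of WUS. With library totals alone this list had 1 higher and 2 lower. Among PLETHORA and root stem-cell genes, 0 higher and 3 lower of 6 tested were called. *AIL6* (-1.51) and *AIL5* (-1.25), AP2-type factors that promote meristem activity, fell, and *SCR* was close to the threshold (-0.43, adjusted p = 0.019) and not called without the third WUS-GR library (adjusted p = 0.081).

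Genes that drive leaf growth were lower. GRF transcription factors and their coactivators, of which *AN3* (GIF1) is the best known, sustain cell proliferation in young leaves, and 0 higher and 7 lower of 10 tested members were called (median -0.98). *AN3* was at 12.1, 7.90 and 11.4 CPM in WUS-GR, against 51, 43.7 and 47.5 CPM in Col-0, a log2 fold change of -2.19 ± 0.14 (SE, adjusted p = 1.3e-07). *GRF5* was at 5.03, 2.55 and 4.46 CPM in WUS-GR, against 20.6, 23.2 and 19.7 CPM in Col-0, a log2 fold change of -2.41 ± 0.19 (SE, adjusted p = 5.9e-07), and *GRF4* fell by 2.02 on the log2 scale. The WUS-GR libraries of *AN3* and *GRF5* were all below the Col-0 libraries, and *GRF1* (-1.24), *GRF3* (-1.02), *GRF9* (-0.93) and *GRF2* (-0.85) completed the 7. Without TSA, 1 higher and 2 lower of 10 tested members of this list were called. The TCP family, whose members promote or restrict proliferation depending on class, had 0 higher and 10 lower of 16 tested (median -0.53). *PTF1* (TCP13) was at 0.325, 0.987 and 0.292 CPM in WUS-GR, against 8.94, 7.81 and 7.94 CPM in Col-0, a log2 fold change of -3.86 ± 0.29 (SE, adjusted p = 4.3e-07), followed by *TCP17* (-1.59) and *TCP20* (-0.95). Library totals alone gave 0 higher and 8 lower for GRF and GIF genes and 0 higher and 11 lower for TCP genes.

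In the stomatal lineage 4 higher and 7 lower of 15 tested members were called (median -0.72), and the falls included the genes that start it. *SPCH*, the bHLH factor required for entry into the lineage, was at 0.866, 1.25 and 1.75 CPM in WUS-GR, against 3.58, 4.47 and 3.54 CPM in Col-0, a log2 fold change of -1.61 ± 0.25 (SE, adjusted p = 0.00018). *EPF2*, a peptide of early lineage cells that limits entry, was at 0.271, 0.156 and 0.219 CPM in WUS-GR, against 1.84, 1.32 and 1.18 CPM in Col-0, a log2 fold change of -2.71 ± 0.39 (SE, adjusted p = 9.4e-05). The receptor genes *TMM* (-0.72) and *ER* (-1.15), the inhibitory peptide *CHAL* (-2.41) and AT4G31805 (-2.44) fell, while *FMA* (0.998), which sets guard cell identity, *ERL1* (0.55), *YDA* (0.36) and *ICE1* (0.35) rose. Vascular genes were 4 higher and 14 lower of 22 tested (median -0.63). The falls held *CLE41*, the phloem-derived peptide that maintains the cambium (-2.53), its receptor *PXY* (-0.41), the phloem regulators *OPS* (-1.28), *BRX* (-1.02), *CVP2* (-0.93) and *APL* (-0.70), and the xylem vessel factor *VND1* (-1.77). *CLE41* was at 0.704, 0.987 and 0.512 CPM in WUS-GR, against 4.55, 4.38 and 4.19 CPM in Col-0, with all WUS-GR libraries below all Col-0 libraries. In contrast *XCP1*, a protease of dying vessel cells, was at 1.41, 1.82 and 2.56 CPM in WUS-GR, against 0.306, 0.706 and 0.218 CPM in Col-0, a log2 fold change of 2.197 ± 0.41 (SE, adjusted p = 0.00059). Genes of flowering and floral identity were 2 higher and 9 lower of 17 tested (median -0.51). *AGL24*, which promotes flowering, was at 0.379, 0.468 and 0.292 CPM in WUS-GR, against 1.79, 1.69 and 1.75 CPM in Col-0, and *FD*, the partner of the flowering signal FT, at 2.17, 1.92 and 1.83 CPM in WUS-GR, against 9.40, 6.73 and 8.51 CPM in Col-0. Both were lower in all WUS-GR libraries, and the repressor *FLC* fell too (-1.05), while the repressor *SVP* rose by 0.24 on the log2 scale.

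Auxin lists held called members in both directions at every step from synthesis to response, beside shares of 27.0% higher and 27.8% lower over all genes tested. Auxin is made by TAA aminotransferases and YUCCA enzymes, moved by PIN exporters and AUX1/LAX importers, and perceived by TIR1/AFB receptors, which destroy AUX/IAA repressors and thereby free ARF transcription factors. Among synthesis genes 2 higher and 3 lower of 7 tested were called. *TAA1* was at 15.9, 15.6 and 16.7 CPM in WUS-GR, against 6.69, 5.93 and 6.85 CPM in Col-0 (1.31 on the log2 scale) and its relative *TAR2* at 0.704, 0.831 and 1.32 CPM in WUS-GR, against 3.78, 6.73 and 5.19 CPM in Col-0 (-2.499). Likewise *YUC8* was at 2.49, 3.38 and 2.63 CPM in WUS-GR, against 0.919, 0.941 and 0.698 CPM in Col-0 (1.74). *YUC3* was at 0.217, 0.208 and 0.658 CPM in WUS-GR, against 5.82, 4.80 and 7.51 CPM in Col-0 (-4.16). In each of these pairs one gene was higher and the other lower in all WUS-GR libraries, and *YUC6* was lower (-1.36). Among transport genes 3 higher and 1 lower of 11 tested were called, namely *PIN3* (1.08), *AUX1* (0.78) and *PIN4* (0.66) as rises and *LAX2* (-0.85) as the fall. Library totals alone gave 3 higher and 5 lower for transport genes, and the list's median was -0.06, against 0.18 with TMM. *PIN3* was at 453, 410.4 and 371 CPM in WUS-GR, against 198, 195 and 190.0 CPM in Col-0, and its log2 fold change without TSA was -1.17. The receptors were 3 higher and 2 lower of 6 tested, or 2 higher and 2 lower with library totals alone. *AFB3* (0.86) and *AFB5* (0.51) were higher and *GRH1*, also known as AFB1, was at 19, 17 and 19 CPM in WUS-GR, against 64.3, 51.9 and 44 CPM in Col-0 (-1.54).

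AUX/IAA genes were 10 higher and 5 lower of 23 tested (median 0.25). *IAA29* was at 5.52, 5.77 and 5.34 CPM in WUS-GR, against 0.868, 0.659 and 1.05 CPM in Col-0, a log2 fold change of 2.68 ± 0.22 (SE, adjusted p = 7.3e-07). *SHY2* (IAA3) was at 57.5, 53.6 and 60.1 CPM in WUS-GR, against 13.5, 15.4 and 12.1 CPM in Col-0, a log2 fold change of 2.06 ± 0.11 (SE, adjusted p = 2.5e-08). *IAA19* was at 2.49, 2.70 and 2.92 CPM in WUS-GR, against 1.28, 0.800 and 0.698 CPM in Col-0, a log2 fold change of 1.55 ± 0.27 (SE, adjusted p = 0.00036). All 3 were higher in each WUS-GR library than in any Col-0 library, as was *IAA20* (1.998), whereas *IAA34* fell (-2.26). ARF genes were 5 higher and 6 lower of 15 tested (median 0.17). *ETT* (ARF3) was at 28.2, 29 and 28.2 CPM in WUS-GR, against 14.5, 10.8 and 12.1 CPM in Col-0 (1.19) and *ARF4*, which acts with it in leaf polarity, at 17.8, 17 and 19.2 CPM in WUS-GR, against 35.3, 41.8 and 40.8 CPM in Col-0 (-1.13). *MP* (ARF5), the activator required for embryonic root and vein formation, was at 7.63, 8.05 and 8.70 CPM in WUS-GR, against 16.4, 16.6 and 11.7 CPM in Col-0, a log2 fold change of -0.87 ± 0.15 (SE, adjusted p = 0.00031). For *MP* the genotypes did not overlap, and the activators *ARF6* (-0.66) and *ARF8* (-0.87) were lower too, while *NPH4* (ARF7) was higher (0.32). GH3 genes, which encode enzymes that conjugate hormones, were 3 higher and 3 lower of 8 tested, with *WES1* (0.71) and *DFL1* (0.60) higher and *GH3.3* (-1.43) and *DFL2* (-3.24) lower. *DFL2* overlaps a gene on the opposite strand by 432 bp. The growth-associated SAUR genes were 10 higher and 6 lower of 23 tested (median 0.28), or 7 higher and 8 lower with library totals alone. AT3G12830 (1.598) was their largest rise and AT4G34810, with 3 or fewer counts in each WUS-GR library, was at least 5.21-fold lower, and many are tandem copies that can share reads.

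In cytokinin signaling, receptors pass phosphate through AHP proteins to type-B ARR activators, and type-A ARR genes are rapid targets that damp the response. Type-A genes were 3 higher and 2 lower of 7 tested, or 2 higher and 3 lower with library totals alone, with *ARR7* (-2.18) and *RR16* (ARR16, -1.95) lower and *RR3* (0.72), *ARR4* (0.62) and *ARR9* (0.58, not called with library totals alone) higher. *RR16* was at 0.271, 0.260 and 0.366 CPM in WUS-GR, against 0.766, 0.988 and 1.66 CPM in Col-0, with no overlap. Upstream genes were 3 higher and 6 lower of 13 tested (median -0.36). *AHP1* was at 0.595, 0.883 and 0.585 CPM in WUS-GR, against 1.43, 2.49 and 1.79 CPM in Col-0, a log2 fold change of -1.45 ± 0.32 (SE, adjusted p = 0.0021). *AHP3* was at 5.85, 5.51 and 6.80 CPM in WUS-GR, against 13.3, 11.4 and 15 CPM in Col-0, a log2 fold change of -1.14 ± 0.14 (SE, adjusted p = 2.9e-05). *AHP4* had 0 counts in each WUS-GR library and was at least 3.28-fold lower, and *AHP5* rose (0.56). The receptor *WOL*, also known as AHK4 or CRE1, fell by 0.71 on the log2 scale. Enzymes of cytokinin metabolism were 4 higher and 3 lower of 11 tested, or 3 higher and 4 lower with library totals alone. Besides *LOG5*, the activating enzymes *LOG6*, with 3 or fewer counts in each WUS-GR library, and *LOG8* (-2.49) fell, the synthesis gene *IPT3* rose (1.36), and the cytokinin oxidase *CKX5* was at 3.30, 3.53 and 4.46 CPM in WUS-GR, against 1.17, 1.18 and 0.698 CPM in Col-0 (1.88). *CKX5* overlaps an opposite-strand gene by 665 bp.

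Gibberellin genes were 0 higher and 8 lower of 16 tested (median -0.49), across synthesis, perception and repression. The DELLA repressors *RGL1* (-1.31 on the log2 scale), *RGA1* (-1.03) and *GAI* (-0.47), the receptors *GID1B* (-1.07) and *GID1A* (-0.58), the synthesis genes *GA3OX1* (-0.83) and *GA3* (-0.34) and the inactivating oxidase *GA2OX2* (-1.16) were the 8 lower members. *RGA1* was at 13.3, 13.6 and 12.6 CPM in WUS-GR, against 29.5, 23.4 and 27.9 CPM in Col-0. *GID1B* was at 17.2, 15.6 and 17.3 CPM in WUS-GR, against 32.6, 36.3 and 35.7 CPM in Col-0. The genotypes did not overlap for either gene. With library totals alone the list had 0 higher and 9 lower. Brassinosteroid genes were 7 higher and 10 lower of 27 tested (median -0.11). The synthesis genes *DET2* (-0.96) and *DWF4* (-0.85) fell, and *BAS1*, which inactivates brassinosteroids, was at 49.3, 42.6 and 44.2 CPM in WUS-GR, against 16.3, 14.6 and 14.8 CPM in Col-0, a log2 fold change of 1.57 ± 0.10 (SE, adjusted p = 1.1e-07). All WUS-GR libraries were above all Col-0 libraries for *BAS1*, and of the response factors *BZR1* (0.54) and *BES1* (0.27) rose.

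Genes of DNA replication were more often higher than lower, with 15 higher and 0 lower of 25 tested (median 0.73). Entry into S phase is controlled by E2F factors, which are held inactive by the retinoblastoma protein RBR1 and whose sites carry cores such as TTTCCCGC or TTTGGCGC. With these and the variants TTTCGCGC and TTTGCCGC, read on both strands, 1.41% of all promoters and 1.33% of those of genes tested held a match within 250 bases, against 32.0% of the 25 tested list members and 26.7% of its 15 higher members. The list was made of replication and E2F genes, so its excess over all promoters is no result of these data. Matches were not more frequent among its higher members than among all 25, of which 8 held one. The 4 higher members with a match were *MCM2*, *MCM5*, *RBR1* and *FAS1*, and the parts of their promoters around the match are printed with the site in capitals.
MCM2 (chr1:16970186-16970213, plus strand): aattggcgccaataTTTCCCGCctaatc
MCM5 (chr2:3527501-3527533, minus strand): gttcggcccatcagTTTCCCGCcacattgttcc
RBR1 (chr3:3919414-3919449, minus strand): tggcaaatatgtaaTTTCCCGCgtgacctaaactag
FAS1 (chr1:24324137-24324233, minus strand): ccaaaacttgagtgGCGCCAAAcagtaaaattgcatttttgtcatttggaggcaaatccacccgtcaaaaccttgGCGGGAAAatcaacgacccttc

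*RBR1* was at 118, 121 and 107 CPM in WUS-GR, against 56.8, 60.3 and 51.1 CPM in Col-0, a log2 fold change of 1.04 ± 0.09 (SE, adjusted p = 1.5e-06). *MCM5*, a subunit of the replicative helicase, was at 2.71, 3.22 and 2.41 CPM in WUS-GR, against 1.28, 1.27 and 1.27 CPM in Col-0, a log2 fold change of 1.14 ± 0.22 (SE, adjusted p = 0.00092). *MCM2* was at 1.14, 0.987 and 0.804 CPM in WUS-GR, against 0.715, 0.471 and 0.480 CPM in Col-0, a log2 fold change of 0.83 ± 0.33 (SE, adjusted p = 0.049). *FAS1*, the large subunit of chromatin assembly factor CAF-1, was at 3.36, 2.60 and 3.73 CPM in WUS-GR, against 1.17, 1.04 and 0.786 CPM in Col-0, a log2 fold change of 1.68 ± 0.25 (SE, adjusted p = 0.00011). In each of *RBR1*, *MCM5* and *FAS1* all WUS-GR libraries were above all Col-0 libraries. The ribonucleotide reductase genes *TSO2* (1.15) and *RNR1* (1.07), the polymerase subunits *POLD3* (1.11) and *POLA2* (0.84), the sliding clamp *PCNA2* (1.05) and the E2F genes *E2F3* (1.01) and *E2F1* (0.85) rose too, while *MCM3* (0.01, adjusted p = 0.99) and *MCM4* (0.32, adjusted p = 0.32) were not called. With library totals alone the list had 10 higher and 2 lower. Histone genes were 17 higher and 4 lower of 37 tested (median 0.24), from the H2A.Z gene *HTA11* (-2.13) to the H2B gene *HTB2*, which was at 50.02, 41.8 and 47.7 CPM in WUS-GR, against 17.9, 13.8 and 14 CPM in Col-0 (1.61), and many histone genes are near-identical copies. Mitosis genes were 8 higher and 1 lower of 20 tested with TMM scaling but 2 higher and 4 lower with library totals alone, so the direction of this list depends on the scaling, and its largest rise, the Aurora kinase *AUR2* (2.28), overlaps an opposite-strand gene by 877 bp. Cyclins, CDKs and their inhibitors were 6 higher and 8 lower of 26 tested. The D-type cyclin *CYCD3;1* (-1.22) and *CYCD6;1* (-1.81) fell, as did the inhibitor *ICK6*, at 0.271, 0.156 and 0.219 CPM in WUS-GR, against 2.86, 2.82 and 2.31 CPM in Col-0 (-3.60), and the inhibitor *LGO* (1.26) and *CYCA1;2* (1.90) rose. Ribosomal protein genes had more lower than higher members, 41 higher and 98 lower of 282 tested, or 13 higher and 152 lower with library totals alone, with small changes (median -0.14), and ribosome biogenesis genes were 4 higher and 7 lower of 20 tested (median -0.12).

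Plastid-encoded genes were higher almost throughout, with 87 higher and 0 lower of 96 tested (median 2.78). Their summed level was 5018, 12162 and 4562 CPM in WUS-GR, against 1432, 1300 and 1603 CPM in Col-0, so the second WUS-GR library was far above the others and all 3 were above wild type. Without TSA 89 higher and 0 lower of 97 tested were called (median 3.24), and the interaction with TSA was called for only 1 plastid gene. Without TSA the plastid shares of counts were 1.32%, 0.609% and 0.315% in WUS-GR, against 0.115%, 0.0778% and 0.148% in Col-0. With such a spread in WUS-GR a dependence on TSA could be missed, and for the other plastid genes it was not shown. RNA was selected for poly(A) tails before sequencing, which leaves plastid transcripts as a residue, and the part of RNA selection in their difference was not tested. With organelle genes left out of the fit, 4563 genes were higher and 4685 lower. Mitochondrial-encoded genes were 6 higher and 5 lower of 25 tested (median 0.10), or 4 higher and 7 lower with library totals alone, with summed levels of 919.9, 1368 and 1339 CPM in WUS-GR, against 1582, 1080 and 1362 CPM in Col-0, which overlap.

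Nuclear photosynthesis genes were 35 higher and 2 lower of 52 tested (median 0.53). Their sum was 73994, 78675 and 78483 CPM in WUS-GR, against 47172, 55779 and 61532 CPM in Col-0, with no overlap. *Lhca6*, a minor antenna protein of photosystem I, was at 12.1, 14.9 and 10.8 CPM in WUS-GR, against 1.02, 2.21 and 1.79 CPM in Col-0, a log2 fold change of 2.90 ± 0.22 (SE, adjusted p = 4.6e-07), and *NPQ4* (PsbS), which dissipates excess light, at 125, 146 and 121 CPM in WUS-GR, against 33.9, 47.7 and 39.5 CPM in Col-0, a log2 fold change of 1.70 ± 0.12 (SE, adjusted p = 2.9e-07). The lower members were *RBCS1B*, a small subunit gene of Rubisco, at 10.07, 12.2 and 8.12 CPM in WUS-GR, against 28.1, 30.2 and 23.7 CPM in Col-0 (-1.42), and *RBCS2B* (-0.40), whose near-identical paralogs can share reads with them. Carbonic anhydrase *CA1* was at 65.9, 106 and 91.5 CPM in WUS-GR, against 17.2, 18.7 and 21 CPM in Col-0, a log2 fold change of 2.21 ± 0.15 (SE, adjusted p = 2.1e-07). Each WUS-GR library was above each Col-0 library for *Lhca6*, *NPQ4* and *CA1*. These genes are also the markers of green tissue, and the 22 shoot markers, all detected, summed to 49693, 52010.4 and 52373 CPM in WUS-GR, against 31791, 37743 and 41389 CPM in Col-0, whereas the 21 root markers summed to 303, 289 and 353 CPM in WUS-GR, against 367, 261 and 297 CPM in Col-0, with 9 to 11 of them at 0. The share of green tissue in the samples was thus not tested apart from the expression of these genes. Only 3 genes of seed storage and embryo development had enough counts to be tested, and all were lower, the antioxidant *PER1* with -2.60 and the repressors of the embryo program *HSI2* (-0.37) and *HSL1* (-0.31). The 21 members of that list summed to 38.1, 37.2 and 35.9 CPM in WUS-GR, against 51.3, 45.5 and 51.4 CPM in Col-0.

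Clock genes of the morning were 0 higher and 7 lower of 8 tested (median -0.52). *LHY*, one of the central MYB-type repressors, was at 1.89, 0.935 and 1.97 CPM in WUS-GR, against 3.37, 3.67 and 3.45 CPM in Col-0, a log2 fold change of -1.15 ± 0.26 (SE, adjusted p = 0.0022). *RVE8* was at 7.96, 7.95 and 8.63 CPM in WUS-GR, against 19.1, 18.4 and 19.8 CPM in Col-0, a log2 fold change of -1.22 ± 0.11 (SE, adjusted p = 1.4e-06). Each WUS-GR library was below each Col-0 library for both genes. *CCA1* (-0.47), *PRR7* (-0.54) and *LCL1* (-0.51) fell as well, and *PRR9* was not called (-0.17, adjusted p = 0.11). Evening genes were 4 higher and 4 lower of 12 tested, but 0 higher and 6 lower with library totals alone, and among them *PRR3* (-1.46) and *TOC1* (-0.82) fell under both scalings. Phytochrome, PIF and HY5 genes were 6 higher and 8 lower of 23 tested, or 1 higher and 11 lower with library totals alone. *HY5*, the activator of light-dependent development, was at 28, 25 and 25.2 CPM in WUS-GR, against 52.5, 43.7 and 52.7 CPM in Col-0, a log2 fold change of -0.93 ± 0.10 (SE, adjusted p = 1.0e-05). *PIF3* and *PIF7* (-1.05), which promote elongation in the dark or shade, were lower too, and *HEC1*, which interferes with PIFs and acts in the meristem, was at 26.8, 28.2 and 26.5 CPM in WUS-GR, against 6.49, 7.202 and 5.33 CPM in Col-0, a log2 fold change of 2.102 ± 0.12 (SE, adjusted p = 6.0e-08). Neither *HY5* nor *HEC1* had overlapping genotypes. B-box genes were 6 higher and 7 lower of 24 tested, with the flowering activator *CO* lowest (-1.596) and *BBX17* highest (1.61).

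Among genes of the cell surface, those of the Casparian strip, the lignin barrier of the root endodermis, stood out by their size. The list was 4 higher and 1 lower of 7 tested (median 1.90). *CASP1* was at 13.9, 9.87 and 16.7 CPM in WUS-GR, against 1.43, 1.37 and 1 CPM in Col-0, a log2 fold change of 3.41 ± 0.23 (SE, adjusted p = 1.6e-07). *MYB36*, the transcription factor that activates *CASP* genes, was at 1.46, 1.14 and 1.54 CPM in WUS-GR, against 0.306, 0.518 and 0.262 CPM in Col-0, a log2 fold change of 1.90 ± 0.35 (SE, adjusted p = 0.00058). All WUS-GR libraries were above all Col-0 libraries for both genes and for *CASP4* (2.76), whereas *CASP2* fell (-1.99). The *CASP* genes and *MYB36* are also root markers, whose list was 4 higher and 2 lower of 8 tested, and the root-specific glucosidase *PYK10* was not called (0.03, adjusted p = 0.88). Root hair genes were 2 higher and 4 lower of 11 tested, and the falls were regulators of epidermal fate, *GL2* at 4.22, 5.09 and 5.56 CPM in WUS-GR, against 21, 20.4 and 23 CPM in Col-0 (-2.12), *CPC* (-1.45), *TRY* (-1.43) and *ETC1* (-2.15).

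Wall-loosening expansins and XTH enzymes were 10 higher and 10 lower of 36 tested (median -0.09), from *XTH9* at 6.66, 7.12 and 7.82 CPM in WUS-GR, against 48.3, 49.7 and 54.4 CPM in Col-0 (-2.82) to *EXPA6* at 42.5, 40.2 and 36.3 CPM in WUS-GR, against 12.1, 9.84 and 8.38 CPM in Col-0 (1.98). Cellulose synthase and related genes were 9 higher and 11 lower of 25 tested. The secondary wall subunits *IRX3* (1.48), *IRX1* (1.19) and *CESA4* (0.79) and the primary wall subunits *CESA1* (0.35) and *CESA5* (0.50) rose, and all 11 lower members were cellulose synthase-like genes, with *CSLE1* lowest (-2.48). Arabinogalactan protein and extensin genes were 11 higher and 6 lower of 32 tested, or 8 higher and 10 lower with library totals alone, and ran from *AGP18* (-2.31) to *AGP1*, which was at 119.8, 121 and 109.8 CPM in WUS-GR, against 18.4, 20.4 and 30.2 CPM in Col-0 (2.34). Genes of cuticular wax and cutin were 16 higher and 11 lower of 35 tested, or 11 higher and 14 lower with library totals alone. *CER1*, required for the alkanes of the wax, was at 1.95, 2.49 and 1.75 CPM in WUS-GR, against 10.3, 13.2 and 10.9 CPM in Col-0, a log2 fold change of -2.45 ± 0.18 (SE, adjusted p = 2.9e-07). *GPAT6* was at 0.217, 0.208 and 0 CPM in WUS-GR, against 1.23, 1.98 and 0.960 CPM in Col-0, a log2 fold change of -3.11 ± 0.54 (SE, adjusted p = 0.00039). *CER2* was at 19.2, 18.5 and 23 CPM in WUS-GR, against 8.53, 8.94 and 6.63 CPM in Col-0, a log2 fold change of 1.33 ± 0.14 (SE, adjusted p = 5.8e-06). *GPAT6* makes a cutin precursor and was below wild type in all WUS-GR libraries, as was *CER1*, while *CER2*, which extends wax chains, was above it.

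Nitrate uptake and assimilation genes were mostly higher, 13 higher and 4 lower of 22 tested (median 0.43). The transporter and sensor *NRT1.1* was at 70.3, 76.6 and 63.8 CPM in WUS-GR, against 30.0, 27.5 and 29.2 CPM in Col-0, a log2 fold change of 1.28 ± 0.09 (SE, adjusted p = 3.2e-07). The nitrate reductase genes *NIA1* (1.48) and *NIA2* (0.87), nitrite reductase *NIR1* (0.63), the plastid glutamine synthetase *GS2* (0.86), its cytosolic relative *GSR2* (1.53) and the glutamate synthases *GLU1* (1.34) and *GLT1* (0.79) rose. Higher members thus stood at each step from nitrate to glutamate, and the steps of the 4 lower members are not reported here. *NIA1* was at 8886, 9199 and 9144 CPM in WUS-GR, against 2509, 4232 and 3000.4 CPM in Col-0, with no overlap of genotypes. Phosphate starvation genes were 5 higher and 6 lower of 16 tested, with *PS2* far above the rest and the transporter *PHT1;1* (-2.85), *SPX1* (-1.59) and the exporter *PHO1* (-1.49) lower. Genes that mark sugar and energy status were 17 higher and 9 lower of 34 tested, or 15 higher and 15 lower with library totals alone. *APL3*, a subunit of the enzyme that commits sugar to starch, was at 3.57, 6.08 and 4.09 CPM in WUS-GR, against 0.715, 0.706 and 1.09 CPM in Col-0, a log2 fold change of 2.44 ± 0.28 (SE, adjusted p = 1.4e-05), and the vacuolar sugar transporter *SWEET17* at 0.650, 0.519 and 1.17 CPM in WUS-GR, against 5.67, 7.25 and 5.89 CPM in Col-0, a log2 fold change of -3.06 ± 0.26 (SE, adjusted p = 1.1e-06). The kinase subunit *KIN10*, which signals low energy, fell by 0.66 on the log2 scale, whereas *SEN1* (1.40) and *ASN1* (0.72), which rise in starved cells, were higher. Glucosinolate genes were 7 higher and 5 lower of 16 tested, or 5 higher and 5 lower with library totals alone. The indole branch genes *CYP79B2* (1.52), *CYP83B1* (1.31) and *SOT16* (1.91) were higher and the aliphatic regulator *MYB28* (-1.18), *MAM1* and the indole modifier *CYP81F2* (-2.83) lower. Flavonoid and phenylpropanoid genes were 5 higher and 4 lower of 12 tested, from *PAL3* (-2.55) to *PAL4* (1.86), and iron deficiency genes were 3 higher and 2 lower of 9 tested. With library totals alone these counts were 4 higher and 4 lower for the former and 2 higher and 2 lower for the latter.

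Genes of the co-repressor and chromatin machinery were examined because TSA acts on histone deacetylases. The TOPLESS list, which also holds the co-repressors LUG, LUH and SEU, was 5 higher and 1 lower of 8 tested (median 0.40). *TPR3* was at 151, 159 and 129.7 CPM in WUS-GR, against 38.4, 38.3 and 36.4 CPM in Col-0, a log2 fold change of 1.96 ± 0.09 (SE, adjusted p = 1.4e-08), and *TPR2* (AT3G16830) at 343, 332 and 319 CPM in WUS-GR, against 128, 139 and 115 CPM in Col-0, a log2 fold change of 1.38 ± 0.09 (SE, adjusted p = 1.3e-07). *TPR1* was at 194, 194 and 164 CPM in WUS-GR, against 103, 93.9 and 79.5 CPM in Col-0, a log2 fold change of 0.998 ± 0.11 (SE, adjusted p = 8.6e-06). All 3 were higher in each WUS-GR library than in any Col-0 library, *WSIP2* (TPR4) rose by 0.55 on the log2 scale, and *TPL* itself was not called (0.05, adjusted p = 0.68). RPD3-type deacetylases, the TSA-sensitive family, were 2 higher and 3 lower of 8 tested (median -0.21). *HDA6* was at 55, 52.9 and 48 CPM in WUS-GR, against 36.1, 30.9 and 28.9 CPM in Col-0, a log2 fold change of 0.70 ± 0.10 (SE, adjusted p = 0.00010), and *HDA08* fell by 0.74, while *HD1* (HDA19), which acts with TOPLESS, was not called (-0.03, adjusted p = 0.81). The plant-specific HD2 and the sirtuin deacetylases were 1 higher and 1 lower of 6 tested, and acetyltransferases were 1 higher and 2 lower of 11 tested, with *HAF01* (0.75) higher and *HAC12* (-0.80) and *ELO3* (-0.76) lower. Polycomb and trithorax genes were 8 higher and 3 lower of 25 tested, or 5 higher and 10 lower with library totals alone. The demethylase *JMJD5* was at 7.199, 5.71 and 8.63 CPM in WUS-GR, against 36.9, 34.8 and 33.6 CPM in Col-0, a log2 fold change of -2.30 ± 0.13 (SE, adjusted p = 6.0e-08), and *RING1A* rose by 1.02. In DNA methylation and RNA silencing 14 higher and 8 lower of 40 tested were called, or 10 higher and 12 lower with library totals alone, and the maintenance methyltransferases *MET1*, at 3.41, 3.69 and 2.85 CPM in WUS-GR, against 1.84, 0.800 and 1.13 CPM in Col-0 (1.42), and *CMT3* (0.94) were higher while *AGO10* (-1.35), an Argonaute of the shoot meristem, and the microRNA processing enzyme *DCL1* (-0.98) were lower.

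Large transcription factor families had called members in both directions, with 26 higher and 15 lower of 54 tested for AP2/ERF genes, 18 higher and 13 lower of 50 tested for NAC genes, 14 higher and 14 lower of 45 tested for MYB genes and 11 higher and 17 lower of 50 tested for bZIP genes. With library totals alone the NAC counts were 14 higher and 18 lower and the MYB counts 10 higher and 18 lower. *NAC097* was at 0, 0.0520 and 0.0731 CPM in WUS-GR, against 0.868, 0.565 and 0.480 CPM in Col-0, with 3 or fewer counts in each WUS-GR library, and was at least 3.56-fold lower, while *RD26* was the largest NAC rise. In the MYB family the trichome and root epidermis gene *MYB23* fell by 3.12 and *MYB102* rose by 1.97, and in the bZIP family *bZIP44* fell by 2.48 and *BZIP53*, an activator of amino acid metabolism genes in low energy, rose by 1.28. The 8 tested LBD genes were 2 higher and 3 lower.

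The same genotypes were set against each other without TSA, where 57.9% of 17285 genes were called (29.3% higher, 28.6% lower). The comparisons share no library. Across 16411 genes tested in both, the log2 fold changes correlated with Pearson's r = 0.72 and Spearman's rho = 0.62, given as a description since genes are not independent. With TSA and without it 2792 genes were higher and 2858 lower, and 343 genes were higher with TSA but lower without it, while 224 were lower with TSA but higher without it. The interaction term, fitted over the 12 libraries, was called for 5560 genes (31.0% of 17915 tested). Among them were all 343 and all 224 genes with opposite signs. These had been picked from the same libraries for calls in opposite directions. Their interaction calls were thus nearly fixed beforehand and add no separate evidence. A further 1353 higher and 1456 lower genes were not called without TSA, and for 750 and 646 of these the interaction was called. For the others a dependence on TSA was not shown.

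**Figure D5:**
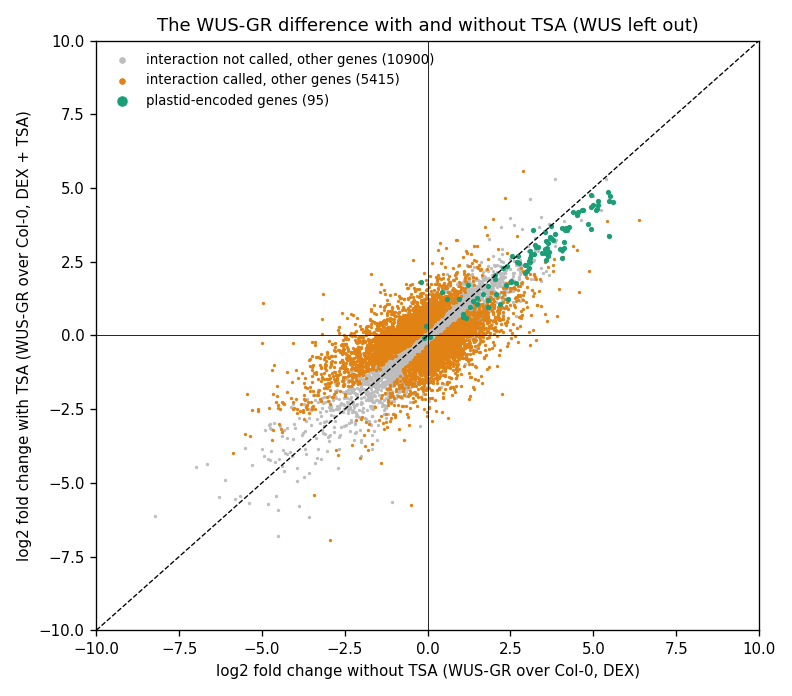
Log2 fold change of WUS-GR over Col-0 with TSA against the same without TSA, with 1 point for each gene tested in both and *WUS* left out. Orange genes have a called interaction of genotype and TSA, grey genes do not, green points are plastid-encoded genes and the dashed line marks equal values. Points spread along the line (Pearson's r = 0.72), and orange genes lie to either side of it, some of them with opposite signs.

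Among genes called both for the interaction and for the difference with TSA, *GPT2*, a plastid transporter of glucose phosphate that responds to sugar, had the largest interaction upward (6.10 ± 0.37 on the log2 scale, SE, adjusted p = 1.0e-07). With TSA it was at 12.1, 10.2 and 8.48 CPM in WUS-GR, against 5.92, 4.75 and 3.88 CPM in Col-0, and without TSA at 0.246 ± 0.0550 CPM in WUS-GR and 7.92 ± 1.80 CPM in Col-0 (SD, n = 3 each). WUS-GR was thus above Col-0 with TSA and below it without TSA. *KCS1*, which elongates fatty acids for wax, was at 28.4, 35.8 and 27.1 CPM in WUS-GR, against 20.7, 21.3 and 19.8 CPM in Col-0 with TSA and at 3.94 ± 2.01 CPM in WUS-GR and 35.9 ± 2.91 CPM in Col-0 without it (SD, n = 3 each), an interaction of 3.78 ± 0.29. *MAPKKK15* (3.81 ± 0.51) was also higher with TSA and lower without it. *ACS8* (3.73 ± 0.53) was higher with TSA and not tested alone without it, where each WUS-GR library had 3 or fewer counts, so that its fitted interaction is no measure of size. *CYP78A9* (3.64 ± 0.60), a cytochrome P450 of organ growth, was lower under both conditions, less so with TSA. The largest interactions downward by fitted value were those of *MSRB7* (-5.21 ± 1.65), whose value is no measure of size, AT3G22410 (-4.20 ± 0.40), AT1G06360 (-3.20 ± 0.55), AT1G75060 (-3.10 ± 0.38) and *BRU6* (-3.07 ± 0.17). AT3G22410 was at 1.35, 0.727 and 0.731 CPM in WUS-GR, against 3.83, 3.39 and 4.15 CPM in Col-0 with TSA, and at 2.64 ± 0.637 CPM in WUS-GR and 0.549 ± 0.0584 CPM in Col-0 without it (SD, n = 3 each), so that the sign of the difference turned. *BRU6*, an enzyme that conjugates auxin, was higher in WUS-GR under both conditions, by 0.49 with TSA and by 3.61 without it, and its rise with TSA was not called with library totals alone. *MSRB7* had 3 or fewer counts in each WUS-GR library with TSA, and its interaction was lost in 5 fits that left out 1 library.

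The counts of these lists without TSA are given for comparison. Nuclear photosynthesis genes had 33 higher and 5 lower of 52 tested without TSA, DNA replication genes 14 higher and 2 lower of 24, WRKY genes 12 higher and 24 lower of 45, TCP genes 2 higher and 9 lower of 16, vascular genes 6 higher and 9 lower of 20, gibberellin genes 3 higher and 6 lower of 15, nitrate assimilation genes 10 higher and 7 lower of 23 and morning clock genes 0 higher and 7 lower of 8. The more frequent direction of these lists was the same with TSA, but it was not so for all lists. Without TSA heat shock genes had 17 higher and 18 lower of 50 tested, and stomatal lineage genes 6 higher and 2 lower of 14. ARF genes had 9 higher and 2 lower of 15, SAUR genes 3 higher and 10 lower of 18 and glucosinolate genes 3 higher and 9 lower of 16. Among single genes, *LTI78* had log2 fold changes of 3.60 with TSA and of 4.11 without it, *RD26* of 2.80 and 2.38, *STM* of -0.86 and -0.06, *AN3* of -2.19 and -1.20, *RBR1* of 1.04 and 0.46 and *TPR3* of 1.96 and 1.95. These values stand side by side, and the lists' dependence on TSA was not tested as such.

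Higher and lower genes differed little in structure, with median exonic lengths of 1913 bases for higher, 1796.5 for lower and 1790 for uncalled genes, and median GC contents of 41.6%, 40.9% and 41.2%. Single-exon genes made up 24.1% of genes at least 2-fold higher and 17.1% of genes at least 2-fold lower, compared with 12.3% of all genes tested. Genes at least 2-fold different were also expressed at lower levels, with a median log2 CPM of 2.96 for higher and 1.83 for lower genes, against 3.54 over all genes tested, and at low counts only larger differences pass the test.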

How the data were processed

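RNA-seq was made from 12 libraries, 3 per genotype and treatment, which the study calls biological triplicates. Per the submitters' notes and the methods of the study, reads were aligned to TAIR10 with HISAT2 and counted with featureCounts, and the authors deposited raw counts per gene without normalization. The annotation release and the strand and multi-mapping settings are not given in the sources used here. Groups came from the sample labels, and 0 columns were left unused.

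Counts were tested in R 4.3.3 with edgeR 4.0.16 (TMM, filterByExpr with its minimum count of 10, quasi-likelihood F-test, two-sided, Benjamini-Hochberg, threshold 0.05), with genotype as the only factor over the 6 DEX and TSA libraries, and with genotype, TSA and their product over 12 libraries for the interaction. The procedure was checked on simulated counts with 200 genes changed by known folds. Of the calls, 8.38% fell on unchanged genes for the genotype difference with TSA and 7.04% for the interaction. Since few genes were changed, up and down alike, this check could not test the scaling. Where every library of a group had at most 3 counts of a gene, its fold change was given as a bound, which covers counting error only. Symbols, positions and promoters came from TAIR10.1 (32548 identifiers matched).

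Genes named were *WUS*, earlier reported targets, the 12 largest rises and falls, the 5 largest interactions each way, and in each list the extremes and, with 15 or fewer members (tested or not), all called members. A few genes that fall under these rules are not reported here. Members and lists were chosen with earlier results of these data known, and list symbols that had matched other genes were corrected after the data were seen. Alternatives were other scalings, filters and thresholds, DESeq2 1.42.0, a fit of 12 libraries, organelle genes left out, a replicate block and leaving out each library. Each p-value weighs a difference against the spread between libraries of the same group.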

Additional observations from a re-analysis of the deposited data

Results flagged for a closer look

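For 5560 genes the genotype difference itself depended on TSA by the interaction term of edgeR's quasi-likelihood test. The largest upward interactions on the log2 scale by fitted value were those of *GPT2* (6.10), *MAPKKK15* (3.81), *KCS1* (3.78), *ACS8* (3.73) and *CYP78A9* (3.64). The largest downward ones were those of *MSRB7* (-5.21), AT3G22410 (-4.20), AT1G06360 (-3.20), AT1G75060 (-3.10) and *BRU6* (-3.07). *MSRB7* had 3 or fewer counts in each WUS-GR library with TSA and *ACS8* in each without it, so that their fitted values are no measure of size, and the interaction of *MSRB7* was lost in 5 fits that left out 1 library. *MAPKKK15* was at 4.38, 4.99 and 5.26 CPM in WUS-GR, against 1.63, 0.894 and 0.960 CPM in Col-0 with TSA and at 0.360 ± 0.231 CPM in WUS-GR and 1.17 ± 0.278 CPM in Col-0 without it (SD, n = 3 each). AT1G75060 was at 2.92, 2.65 and 3 CPM in WUS-GR, against 6.18, 6.17 and 5.33 CPM in Col-0 with TSA and at 1.91 ± 0.280 CPM in WUS-GR and 0.452 ± 0.259 CPM in Col-0 without it (SD, n = 3 each). With library totals alone, 1569 interactions were upward and 5741 downward, compared with 3176 and 2384.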

How the results depend on the processing

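Between the 2 genotypes with TSA, 4555 genes were higher and 4698 lower. Library totals alone gave 2774 and 7024, with a shift of the median of all genes to -0.24, and requiring at least 2-fold differences left 1222 and 1688. The interaction counts, 3176 upward and 2384 downward, became 1569 and 5741 with library totals alone. List members called, 588 higher and 488 lower, became 428 and 680 with library totals alone and 254 and 193 at 2-fold. The other settings (DESeq2's size factors and Wald test, both filters, a fit of 12 libraries, organelle genes left out, adjusted p under 0.01) gave 3406 to 4869 higher and 3513 to 4865 lower genes. Leaving out 1 library gave 3878 to 4438 higher and 4014 to 4482 lower genes, and 2593 to 3057 upward and 1932 to 2340 downward interactions. Among genes named by rule, no genotype difference and no interaction changed direction past the threshold. With library totals alone the more frequent direction did turn for the interactions, for the list members called and for several single lists.

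With the replicate number as a block, 4748 genes were higher and 4803 lower, and 3288 interactions were upward and 2433 downward. Same-numbered libraries of the 2 genotypes correlated in their deviations at 0.085, 0.052 and 0.054, below the minimum of 0.1 for pairing, so the block is given here only. Each library correlated best with its own number (others -0.047 to -0.015). Deviations from a group mean cancel within each group, so the negative values of other pairs follow largely from the positive same-number ones. The pattern is a hint from the data and not the design.

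Of the genes named by rule, 14 were not called with library totals alone, 7 not by DESeq2's Wald test, and 57 of 1302 fits with 1 library left out lost a call. Depth limits weak genes, as 66 lower genes had 3 or fewer counts in each WUS-GR library.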

Other observations

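A few genes outside the lists of pathways rose strongly in all WUS-GR libraries and are given as values, chosen after these were seen. AT5G02540 was at 210.0, 175 and 176 CPM in WUS-GR, against 13.4, 13.9 and 13.7 CPM in Col-0, a log2 fold change of 3.78 ± 0.10 (SE, adjusted p = 3.8e-10). AT1G30750 was at 4.82, 4.57 and 5.92 CPM in WUS-GR, against 0.409, 0.329 and 0.436 CPM in Col-0, a log2 fold change of 3.67 ± 0.25 (SE, adjusted p = 2.1e-07), and AT1G04660 at 2.81, 4.42 and 7.09 CPM in WUS-GR, against 0.562, 0.377 and 0.0436 CPM in Col-0, a log2 fold change of 3.87 ± 0.49 (SE, adjusted p = 3.2e-05).

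Iron genes were the smallest nutrient list. The ferric reductase *FRO3* was at 53.6, 53 and 62.6 CPM in WUS-GR, against 132, 119 and 150.3 CPM in Col-0, a log2 fold change of -1.25 ± 0.10 (SE, adjusted p = 1.0e-06), and the bHLH factor *PYE*, which represses iron genes in deficient roots, fell by 0.74. The iron storage genes *FER1* (0.98) and *FER3* (0.44) and the ubiquitin ligase *BTS* (0.58) rose. Among mitochondrial-encoded genes the largest rise was that of ATMG00980 (1.59 on the log2 scale).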
